A study of Rattus norvegicus with 24 samples.

Results

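Ventricles of diabetic rats were compared with those of control rats at 42 days after injection, the stage to which the series assigns combined diastolic and systolic dysfunction. The 8 arrays labelled for this day were chosen by the group and day in their titles, out of 24 arrays in the series, and each holds the ventricle of 1 animal (4 diabetic, 4 control). All animals were male Wistar rats that weighed 150 g at injection. The diabetic group received streptozotocin at 65 mg/kg and the control group citrate buffer, and the arrays of the same pair of groups at days 3 and 28 served to estimate the spread between animals and to test whether an effect differed between days. The labels give whole ventricles and no separate left and right chamber, so each sample mixes myocytes, vessels, fibroblasts and blood, and no functional measurement of these hearts was analysed here.

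Streptozotocin is taken up by and kills the insulin-producing beta cells, which makes it a toxin model of type 1 diabetes. The normal adult heart burns fatty acids and glucose side by side. Without insulin, glucose entry through the transporter GLUT4 falls while circulating fatty acids rise, and fatty acids activate the nuclear receptor PPAR-alpha, which drives the genes of their own oxidation. Diabetic cardiomyopathy is the name for the loss of filling and then of contraction that can follow without coronary disease.

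The animals themselves differed widely. Body weights were 423, 421, 413 and 472 g in the controls and 126, 114, 112 and 118 g in the diabetic rats, so the diabetic group weighed 27.2% of the control group on average and lay below the weight at injection in every animal. Ventricle weights were 0.96, 0.90, 0.96 and 1.17 g against 0.40, 0.36, 0.35 and 0.36 g. Relative to body weight the ventricle was heavier in the diabetic rats, at 3.175, 3.158, 3.125 and 3.051 mg/g against 2.27, 2.138, 2.324 and 2.479 mg/g. Blood glucose was 582, 769, 752 and 513 mg/dL in the diabetic rats and 127, 141, 156 and 103 mg/dL in the controls. The groups did not overlap in any of the 4 measures, and each mean difference gave p = 0.0286 by exact permutation, two-sided (adjusted p = 0.0286 over the 4), the smallest p that 4 against 4 animals allow.

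Expression was read on the Affymetrix RG-U34A array as MAS5 signal, a linear brightness per probe set, with nearly equal trimmed means on all arrays (1502.31 to 1503.00) in the deposited values. Signals under 30.5, the 10th percentile over all arrays, were set to that floor before taking log2, and 5244 of 8740 probe sets that are not array controls were kept by their mean level. A probe set or gene is said to have risen or fallen when its adjusted p in limma was under 0.05, with Benjamini-Hochberg adjustment over all 5244. The 8 arrays share 1 scan day and chip lot, but the controls were scanned before the diabetic samples, so scan order and group cannot be told apart. Station 1 of the fluidics held 3 control and 2 diabetic arrays and station 2 held 1 and 2. The Gapdh 3' to 5' ratio was lower in every diabetic array (1.11 ± 0.026 against 1.18 ± 0.039, SD, n = 4 each, exact permutation p = 0.0286, adjusted p = 0.114 over 8 quality measures). Diabetic replicate 3 stood apart, with a mean correlation of 0.948 with its group against 0.962 to 0.966 for the other diabetic arrays, and values without it are given where a call or a count of calls described here changed with it.

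At day 42, 599 of 5244 probe sets passed the threshold (11.4%). Of these, 304 were higher in the diabetic ventricles (5.8%) and 295 lower (5.63%), and in 544 of the 599 the diabetic and control arrays did not overlap, as in 1037 of all 5244 (19.8%). With 1 probe set a gene, the one of highest mean, 346 of 3140 genes passed (11%), with 160 higher (5.1%) and 186 lower (5.92%), the groups did not overlap in 616 (19.6%), and the median log2 difference over all genes was -0.04. All gene counts in the following paragraphs are to be read against those shares. With the fluidics station as a block 561 probe sets passed, on the arrays of station 1 alone 402, and on the 3 arrays of station 2 alone 61. Without diabetic replicate 3 the number was 573.

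**Figure D1:**
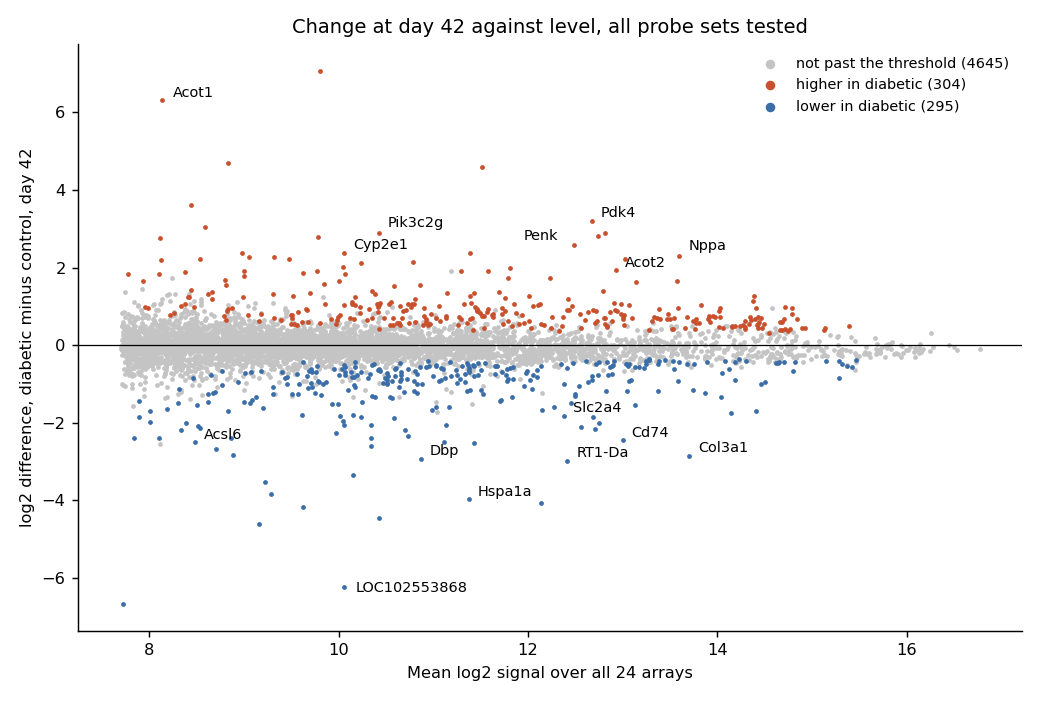
Each point is 1 of the 5244 probe sets tested, with its mean log2 signal over 24 arrays on the x axis and its log2 difference (diabetic minus control, day 42) on the y axis. Red points (304) were higher and blue points (295) lower past the threshold, and Acot1 at 6.31 and LOC102553868 at -6.22 lie farthest from 0 among the labelled genes.

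The rise of fatty acid genes was led by thioesterases, an uncoupling protein and the kinase that closes off glucose oxidation. Of 16 measured targets of PPAR-alpha 9 rose and none fell, with a median log2 difference of 0.74. Acot1, a thioesterase that frees fatty acids from coenzyme A in the cytosol, read 77.4, 20.7, 64.3 and 23.9 in the controls and 2592, 5317, 2711 and 4889 in the diabetic ventricles. It was near or under the floor in the controls and abundant in every diabetic heart. The log2 difference was 6.31 ± 0.58 (SE, adjusted p = 4.69e-08). Its size depends on how low signals are treated, being 5.30 with a floor at the 25th percentile and 6.54 with no floor.

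Acot2, the mitochondrial relative of Acot1, rose by 1.93 ± 0.21 (adjusted p = 6.11e-07), from signals of 3838 to 5167 in the controls to 14349 to 21918 in the diabetic ventricles. The Acot1 probe set is marked in the array design as shared by similar sequences, and this Acot2 probe set is not. A fainter Acot2 probe set with that mark rose by 2.02 ± 0.30. Ucp3, an inner mitochondrial membrane protein that rises with fatty acid load, read 727, 349.8, 808 and 447 in the controls and 2860.0, 2285, 1779.7 and 2883 in the diabetic group. The groups did not overlap, and the difference was 2.13 ± 0.24 (adjusted p = 1.17e-06). Pdk4, the kinase that switches off the pyruvate dehydrogenase complex, read 1070.5, 1165, 2262 and 796 in the controls and 16082, 13594, 5727 and 13135 in the diabetic ventricles, a log2 difference of 3.21 ± 0.32 (adjusted p = 1.77e-07). Diabetic replicate 3 had the lowest diabetic value and still exceeded every control.

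Uptake and mitochondrial oxidation moved less evenly. Of 15 measured genes of fatty acid uptake and activation 6 rose and 3 fell. The thioesterase gene Acot1 is counted among these 6 and also among the PPAR-alpha targets that rose. Cd36, the fatty acid translocase of the cell surface, rose by 1.39 ± 0.21 (adjusted p = 5.41e-05), the transport protein Slc27a1 by 1.01, and the acyl-CoA binding protein Dbi by 1.01. The acyl-CoA synthetase Acsl6 went the other way, from 889.7, 642, 540.3 and 631 to 93.8, 129, 65.1 and 235, a difference of -2.51 ± 0.34 (adjusted p = 1.13e-05). Lipoprotein lipase (Lpl) and the VLDL receptor (Vldlr), which bring in fatty acids from lipoproteins, fell by 0.45 and 0.62. The Lpl call was lost in 6 of the 8 fits with 1 array left out, among them that without diabetic replicate 3 (-0.33, adjusted p = 0.178), when 2 of the list fell.

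In the carnitine shuttle and mitochondrial beta-oxidation 5 of 17 measured genes rose and 2 fell, with a median of 0.09. Cpt1a, the liver-type carnitine palmitoyltransferase, rose by 1.22 ± 0.14 (adjusted p = 1.4e-06). Cpt1b, the form that predominates in muscle, gave 0.23 ± 0.09 and did not pass (adjusted p = 0.14). It passed without diabetic replicate 3, and 7 genes of this list rose and 1 fell without that array. Decr1, needed for unsaturated fatty acids, rose by 1.27 ± 0.17, from 10987 to 14822 in the controls to 28175 to 36253 in the diabetic ventricles. Hadha, Eci1 and Acadvl rose by 0.59, 0.72 and 0.42, the last with its call lost in 5 of the 8 fits with 1 array left out (adjusted p up to 0.0888). A fainter Eci1 probe set rose by 0.96 and another gave -0.01 with overlapping groups (adjusted p = 0.989). The short-chain enzymes Echs1 and Acads fell, by 1.17 and 0.72, and the Acads call was lost without control replicate 4 (-0.60) or diabetic replicate 3 (-0.64).

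**Figure D2:**
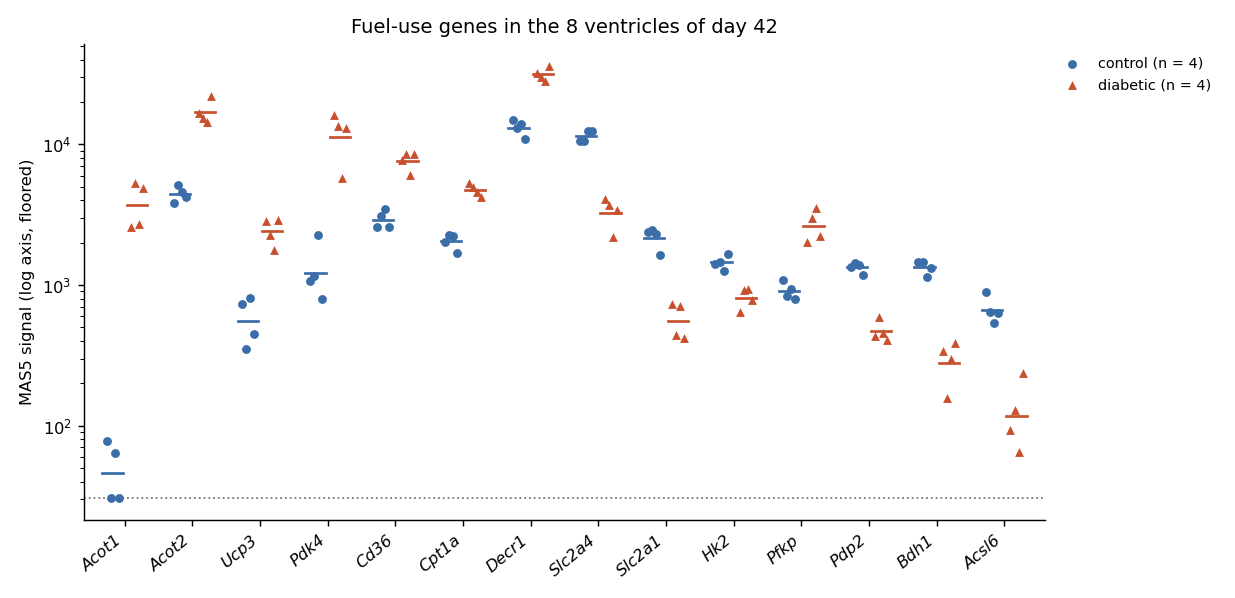
MAS5 signal (log axis, floored at 30.5, dotted line) of 14 fuel-use genes in each of the 4 control (blue circles) and 4 diabetic (red triangles) ventricles of day 42, with bars at the geometric means. The groups do not overlap for any of the genes shown, and 2 control arrays lie at the floor for Acot1.

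Transcripts of both glucose transporters and of hexokinase 2 were lower. Slc2a4, which encodes GLUT4, read 10583, 10634, 12425 and 12420.3 in the controls and 4085, 3716, 2181 and 3425 in the diabetic ventricles. Every diabetic value was below every control, at -1.81 ± 0.18 (adjusted p = 1.72e-07). Slc2a1, the insulin-independent transporter GLUT1, fell by 1.96 ± 0.29 (adjusted p = 3.96e-05), from 1632 to 2445 in the controls to 419.9 to 727 in the diabetic group.

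Hexokinase 2 (Hk2), which traps glucose in the cell as its phosphate, fell by 0.83 ± 0.19 (adjusted p = 0.00386) by its brightest probe set and by 4.16 ± 0.42 (adjusted p = 1.97e-07) by a further one, so the direction was shared and the size was not. Of 17 measured genes of glucose uptake and glycolysis 5 fell and 1 rose. The other 2 that fell were the muscle-enriched enzymes Eno3 (-1.60 ± 0.32) and Pgam2 (-0.83). Pfkp, the platelet form of phosphofructokinase, was the exception that rose, from 1081, 832, 942 and 800.2 to 2015, 2992, 3541 and 2213 (1.53 ± 0.22, adjusted p = 2.03e-05). None of 6 measured glycogen genes passed.

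At the pyruvate step the rise of the kinase Pdk4 was accompanied by a fall of the opposing phosphatase. Pdp2, which reactivates pyruvate dehydrogenase, read 1349, 1424, 1385 and 1187 in the controls and 432, 594, 458 and 406 in the diabetic ventricles (-1.51 ± 0.16, adjusted p = 3.55e-07). Pdk1, a further kinase of the complex, fell by 0.75 ± 0.19, as did pyruvate carboxylase (Pc, -1.23), the mitochondrial pyruvate carrier subunit Mpc1 (-0.53) and the dehydrogenase subunit Dlat (-0.41). In all 5 of 19 measured genes of pyruvate entry and the tricarboxylic acid cycle fell and 2 rose, Pdk4 and the cytosolic isocitrate dehydrogenase Idh1 (0.86 ± 0.18). Without diabetic replicate 3 the log2 difference of Pdk1 was -0.50 (adjusted p = 0.0449) and that of Mpc1 did not pass (-0.48, adjusted p = 0.0877). The calls of Mpc1 and Dlat were lost in 6 and 5 of the 8 fits with 1 array left out. With the Gapdh ratio as a covariate Pdk1, Mpc1 and Dlat did not pass, and on station 1 alone Pc, Mpc1 and Dlat did not.

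Bdh1, the mitochondrial enzyme that oxidises the ketone body beta-hydroxybutyrate, read 1464, 1464, 1149 and 1327 in the controls and 339.8, 157, 296 and 386 in the diabetic ventricles. It fell by 2.27 ± 0.35 (adjusted p = 6.06e-05), and the other 4 measured genes of ketone metabolism did not pass. Genes that break down branched-chain and other amino acids were lower as well, with 8 of 14 measured genes down, none up and a median of -0.56. Among them were isovaleryl-CoA dehydrogenase (Ivd, -0.74 ± 0.12, adjusted p = 0.000171), alanine aminotransferase (Gpt, -0.79 ± 0.14), the propionyl-CoA carboxylase subunit Pcca (-0.77 ± 0.14) and the branched-chain aminotransferase Bcat2 (-1.59 ± 0.46). Without diabetic replicate 3, which had the lowest Bcat2 signal (334 against 2002 to 2596 in the other diabetic arrays), 3 of the list passed and the median was -0.46. Bcat2 itself gave -0.90 ± 0.30 without it and did not pass (adjusted p = 0.058), nor did it without control replicate 2 or 4.

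Genes of oxidative phosphorylation that passed mostly fell. Over all genes 5.92% fell and 5.1% rose. Of 51 measured subunits and assembly genes 7 fell and 1 rose, with a median of -0.23. The falls were small, for example -0.38 ± 0.10 for the Rieske protein Uqcrfs1, and none of the 7 falls passed without diabetic replicate 3. Atp5if1, the inhibitor of ATP synthase, rose by 0.87 ± 0.19 (adjusted p = 0.00203) by a probe set marked as shared by a gene family. Of 2 fainter probe sets with the same mark 1 rose by 0.88 and 1 gave 0.19 with overlapping groups (adjusted p = 0.798). Creatine kinase B (Ckb), part of the system that carries phosphate energy through the cell, fell from 22546, 17592, 15809.8 and 17975 to 6815, 5038, 8425 and 5378 (-1.54 ± 0.25, adjusted p = 9.07e-05). The muscle form Ckm gave -0.43 ± 0.15 and did not pass (adjusted p = 0.0574).

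Among heart failure markers, atrial natriuretic peptide stood out. Nppa, a hormone gene of the atria that the stressed ventricle also switches on, read 8666, 4231, 10197 and 7550.4 in the controls and 33879.8, 31684, 42445 and 36743 in the diabetic ventricles. On the signal scale the gap between the groups was wider than the range within either, and the log2 difference was 2.30 ± 0.47 (adjusted p = 0.00167). All 3 other probe sets of the gene rose too, by 2.22 to 2.90. On the arrays of station 1 alone the difference was 1.91 (adjusted p = 0.0797) and on those of station 2 alone 3.22 (adjusted p = 0.102).

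Of the other measured atrial markers (Myl4, Myl7, Gja5 and Kcnj3) none passed. Myl4, the atrial myosin light chain, read 2732 in diabetic replicate 3 and 558 to 607 in the other diabetic arrays, against 490.3 to 1293 in the controls. Without that replicate the Nppa difference was 2.22 ± 0.52 (adjusted p = 0.00653), and leaving out each array in turn gave 2.04 to 2.46. Nppb, which encodes the ventricular B-type peptide, read 10190.5, 8927, 14305 and 11744 in the controls and 14541, 15727, 23724 and 13777 in the diabetic group. The groups overlapped and the difference of 0.57 ± 0.25 did not pass (adjusted p = 0.156).

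Contractile genes gave calls in both directions at this stage. Over all genes 11% passed. Of 20 measured sarcomere genes 1 rose and 2 fell, and of 19 calcium cycling genes none rose and 1 fell. The sarcomere gene that rose was Tnni1, the slow skeletal troponin I of the immature heart (0.98, adjusted p = 0.0431), and the calcium gene that fell was Jph2, the junctophilin of the dyad (-0.54, adjusted p = 0.0489). Each of these calls was lost in 7 of the 8 fits with 1 array left out, for Tnni1 all but that without diabetic replicate 3 (adjusted p up to 0.136) and for Jph2 all but that without diabetic replicate 2 (up to 0.15). The brightest probe sets of the myosin heavy chains gave -0.08 ± 0.14 for the fast alpha form (Myh6) and 0.30 ± 0.15 for the slow beta form (Myh7), and neither passed (adjusted p = 0.804 and 0.223). A further Myh6 probe set, marked as shared by a gene family, fell by 0.84 ± 0.11 (adjusted p = 7.33e-06), from 44609 to 53779 in the controls to 22213 to 30079 in the diabetic arrays, so the probe sets of Myh6 disagree. Those of Myh7 differ in size. A fainter one read 20607 to 29905 in the controls and 36068 to 56469 in the diabetic arrays, with no overlap, and gave 0.96 ± 0.32 just short of the threshold (adjusted p = 0.0541). That probe set passed at day 28 (1.61, adjusted p = 0.00508) and day 3 (2.85, adjusted p = 1.98e-05), and the brightest Myh7 probe set passed at day 42 with quantile normalization (0.34, adjusted p = 0.0203). Tcap, the telethonin that anchors titin at the Z disc, fell from 18533, 20743, 20175 and 18094 to 8677, 9367, 7044 and 8238 (-1.22 ± 0.16, adjusted p = 6.21e-06). Skeletal alpha-actin (Acta1) ranged from 2554 to 17871 in the diabetic arrays. Its fall of 1.34 ± 0.39 no longer passed without diabetic replicate 1 (-0.88, adjusted p = 0.11), diabetic replicate 2 or 4, or control replicate 3 or 4.

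The calcium pump and its regulators were measured with no difference past the threshold. Atp2a2 (SERCA2) gave -0.17 ± 0.17, its inhibitor phospholamban (Pln) -0.05 ± 0.11, the release channel Ryr2 -0.42 ± 0.33 and the calcium store protein Casq2 0.08 ± 0.14. Their adjusted p values ran from 0.54 to 0.856. The sodium-calcium exchanger Slc8a1 read 3242, 3553, 3582 and 3003 in the controls and 1878, 2808, 2516 and 2113 in the diabetic group. These values did not overlap, yet the difference of -0.54 ± 0.18 missed the threshold (adjusted p = 0.0512), and 4 fainter probe sets of the gene gave -0.12 to 0.64 without passing. It passed under several alternatives, among them the station as a block (-0.59, adjusted p = 0.0312).

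Potassium channel genes held 2 of the larger falls. Kcnd3 (Kv4.3), a pore subunit of the fast transient outward current that shapes early repolarisation, read 593, 518, 349.8 and 527 in the controls and 158, 132, 47.2 and 73.7 in the diabetic ventricles (-2.40 ± 0.43, adjusted p = 0.000297). Kcnq1, the pore of the slow delayed rectifier, read 196, 278, 454 and 483 against 116, 60.7, 72.5 and 74.3 (-2.08 ± 0.36, adjusted p = 0.00026). No diabetic array reached the control range for either gene, and the size for Kcnd3 depends on the treatment of low signals, being -1.61 with a pseudocount in place of the floor. The other 13 of 15 measured potassium channel genes did not pass, among them Kcnd2 (Kv4.2, -0.63 ± 0.29) and Kcne1, the partner subunit of Kcnq1 (-1.02 ± 0.43). Without diabetic replicate 3 Kcne1 fell as well (-1.34 ± 0.44, adjusted p = 0.0489), which made 3 of the 15. The beta-1 adrenergic receptor gene Adrb1 gave -0.97 ± 0.36 (adjusted p = 0.0927).

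**Figure D3:**
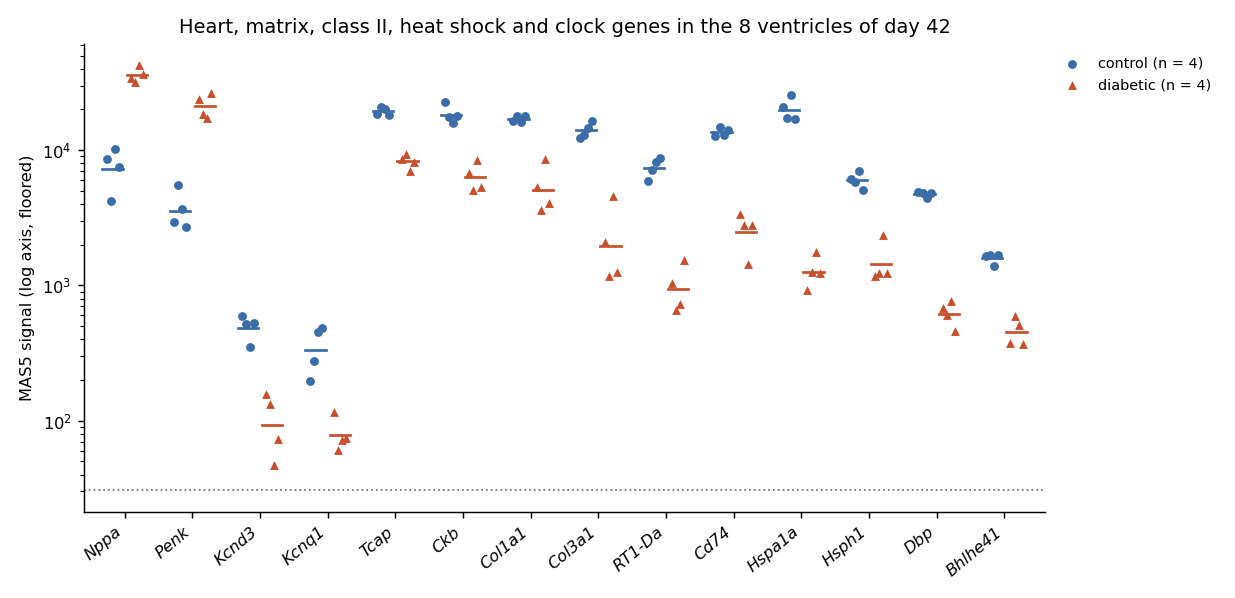
MAS5 signal (log axis, floored at 30.5, dotted line) of 14 further genes in each of the 4 control (blue circles) and 4 diabetic (red triangles) ventricles of day 42, with bars at the geometric means. Nppa and Penk are higher in every diabetic array and the other 12 genes lower, and diabetic replicate 3, the third triangle of each gene, is the highest diabetic array for Col3a1 at 4553.

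The extracellular matrix was the group with the most genes down. Of 32 measured matrix genes 14 fell and 2 rose, with a median of -0.48. Col3a1 and Col1a1, the main fibrillar collagens of the heart together with Col1a2, read 12291, 12995, 14635 and 16339 (Col3a1) and 16404, 18008, 16039.8 and 17929.6 (Col1a1) in the controls. In the diabetic ventricles they read 2104, 1181, 4553 and 1256 and 5331, 3596, 8598 and 4103. Col3a1 fell by 2.85 ± 0.27 (adjusted p = 5.58e-08), Col1a2 by 2.10 ± 0.21 and Col1a1 by 1.74 ± 0.25.

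Diabetic replicate 3 was the highest of its group for Col3a1 and Col1a1 and still below every control. Col15a1, a basement membrane collagen, fell by 2.19 ± 0.17 (adjusted p = 3.2e-09), and the proteoglycan lumican (Lum) by 1.67 ± 0.22. Enzymes and chaperones that mature collagen fell with them, the prolyl hydroxylase P4ha1 by 1.07 and the chaperone Serpinh1 by 0.89. The 2 genes that rose were the laminin chain Lamb2, from 6844 to 7204 in the controls to 10577 to 16345 in the diabetic ventricles (1.04 ± 0.14, adjusted p = 8.85e-06), and the protease Mmp14 (0.69). The Mmp14 call was lost in 7 of the 8 fits with 1 array left out, and without diabetic replicate 3 it gave 0.55 (adjusted p = 0.157), so that 15 matrix genes fell and 1 rose. The list's median was -0.50 with the station as a block, -0.55 on station 1 alone and -0.34 on station 2 alone, where 3 fell.

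Of 9 measured fibroblast markers 6 fell, and their summed signal was 56855 to 82102 in the diabetic arrays against 116267 to 122216 in the controls. Collagens make up 3 of these 9. Vimentin, fibronectin and Pdgfra did not pass (-0.33 to 0.07), but vimentin fell without diabetic replicate 3 (-0.54 ± 0.15, adjusted p = 0.0215), which made 7 of the 9. In these whole-ventricle samples, fewer fibroblasts and less RNA per fibroblast cannot be told apart. The growth factor genes of the TGF-beta family moved in both directions, with Tgfb3 down (-0.73 ± 0.19) and Tgfb2 up (1.24 ± 0.34). A fainter Tgfb3 probe set gave -0.36 with overlapping groups (adjusted p = 0.352), and with the Gapdh ratio as a covariate neither Tgfb3 (-0.58, adjusted p = 0.0878) nor Tgfb2 passed. In addition, the rise of Tgfb2 did not pass without control replicate 4 (0.81, adjusted p = 0.0853).

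Genes of class II antigen presentation fell together. Class II molecules (RT1-D and RT1-B in the rat) present peptides to CD4 T cells, and the invariant chain Cd74 escorts them. Of 17 measured antigen presentation and interferon genes 8 fell and none rose, with a median of -0.86. RT1-Da read 5897, 7121, 8187 and 8819.9 in the controls and 1035, 663, 732 and 1534 in the diabetic ventricles (-2.99 ± 0.22, adjusted p = 3.17e-09). Cd74 read 12657, 14938, 13053 and 14202 against 3391, 2814, 1451 and 2818 (-2.45 ± 0.22, adjusted p = 3.55e-08). The control values of both lay far above all diabetic values.

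RT1-Db1, RT1-Bb, RT1-Ba and RT1-DMb fell by 1.79, 1.35, 1.22 and 0.86, and of 2 fainter probe sets of RT1-Bb 1 fell (-2.83) and 1 did not pass (-0.61, adjusted p = 0.146). The other 2 that fell are the interferon-induced GTPases Mx2 (-2.20 ± 0.49) and Mx1 (-0.997 ± 0.32). The Mx1 call was lost in 5 of the 8 fits with 1 array left out (adjusted p up to 0.157). Without diabetic replicate 3 Mx1 gave -0.91 (adjusted p = 0.11). None of 5 macrophage markers and none of 7 lymphocyte markers passed, and the macrophage markers summed to 9224 to 32819 in the diabetic arrays and 8974 to 11408 in the controls. The macrophage marker Lyz2 read 18305 in diabetic replicate 3 against 1311 to 2076 in the other diabetic arrays and 2236 to 3461 in the controls. Without that array 9 of the 17 measured genes of the list fell and the median was -0.84. The median was -0.95 on station 1 alone and -0.43 on station 2 alone.

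Class II promoters share a Y box, the inverted CCAAT motif of the conserved regulatory module that the coactivator CIITA reads. The 110 bases before the start of the 4 class II chain genes that fell and hold a match are shown because these genes moved together (RefSeq, build GRCr8, each written 5' to 3' on the gene's own strand, the letters CTGATTGG in capitals).
RT1-Ba, chr20:4576947-4577056, plus strand: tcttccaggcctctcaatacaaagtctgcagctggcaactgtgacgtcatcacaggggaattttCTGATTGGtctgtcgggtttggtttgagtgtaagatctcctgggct
RT1-Bb, chr20:4604119-4604228, minus strand: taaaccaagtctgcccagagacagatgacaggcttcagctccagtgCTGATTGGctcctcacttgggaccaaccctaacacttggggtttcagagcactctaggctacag
RT1-Da, chr20:4515305-4515414, plus strand: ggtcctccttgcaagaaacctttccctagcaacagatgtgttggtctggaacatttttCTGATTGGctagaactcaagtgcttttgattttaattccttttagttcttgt
RT1-Db1, chr20:4560163-4560272, minus strand: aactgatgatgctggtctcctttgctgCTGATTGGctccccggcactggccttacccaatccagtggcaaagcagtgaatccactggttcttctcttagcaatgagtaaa
The match begins 46, 64, 52 and 83 bases before the start, in that order. Searched on both strands of windows of 300 bases, the motif was found for 4 of the 5 class II genes that fell and have a window, and for 3.5% of all 33469 windows. The Cd74 window held no match, which says only that these letters are not in it, and a match is a description of the sequence.

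Heat shock proteins and their co-chaperones fell together. These proteins refold or hold damaged proteins and are induced by the factor HSF1. Of 19 measured genes 8 fell and none rose, with a median of -0.43. Hspa1a, the inducible HSP70, read 20802, 17174, 25429 and 16990.2 in the controls and 919, 1255, 1761 and 1232 in the diabetic ventricles (-3.98 ± 0.56, adjusted p = 3.36e-05). Its probe set is marked as shared by similar sequences, so its near-identical copy may contribute. Hsph1, the HSP110 exchange factor of HSP70, read 6116, 5822, 7074 and 5036 against 1172, 1234, 2354 and 1242 (-2.06 ± 0.26, adjusted p = 5.85e-06).

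The diabetic arrays lay below every control for both genes. The HSP40 co-chaperones Dnajb1 and Dnaja1 fell by 1.68 ± 0.27 and 1.30 ± 0.21, the small heat shock proteins Hspb1 and Hspb6 by 1.01 and 0.43, Serpinh1 by 0.89 and the HSP90 co-chaperone Fkbp4 by 0.78. For Hsph1 and Dnajb1, diabetic replicate 3 was the highest diabetic array. Without it 7 of the 19 fell and the median was -0.50. The Hspb6 call was lost in 7 of the 8 fits with 1 array left out (adjusted p up to 0.129). The median was -0.56 on station 1 alone and -0.41 on station 2 alone, where none of the 19 passed.

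The core of the heat shock element, GAANNTTC, was found on either strand in the windows of 7 of the 8 genes that fell and in 8.59% of all windows. The stretches from 60 bases before to 30 after the start are shown for 3 of those with a match there (RefSeq, build GRCr8, gene's strand, the motif in capitals). Dnaja1 also holds a match in that stretch and is not shown.
Hsph1, chr12:10427308-10427397, plus strand: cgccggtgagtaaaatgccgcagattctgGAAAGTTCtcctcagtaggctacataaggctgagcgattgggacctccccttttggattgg
Dnajb1, chr19:41431112-41431201, minus strand: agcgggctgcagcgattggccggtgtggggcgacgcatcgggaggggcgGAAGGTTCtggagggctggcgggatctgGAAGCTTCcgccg
Serpinh1, chr1:163062947-163063036, minus strand: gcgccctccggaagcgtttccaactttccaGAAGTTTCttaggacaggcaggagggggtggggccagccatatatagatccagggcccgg
The Hspa1a window, of the gene with the largest fall in the list, held no match to these letters.

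Clock output genes were lower as well. Dbp, a transcription factor driven directly by the clock proteins CLOCK and BMAL1, read 4921, 4813, 4432 and 4797 in the controls and 687, 608, 767 and 459 in the diabetic ventricles (-2.94 ± 0.31, adjusted p = 3e-07). The animals of each group lay close together and the groups were far apart. Bhlhe41 and Bhlhe40, repressors in the same loop, fell by 1.83 ± 0.25 and 0.93 ± 0.21. Nr1d2 (-1.17 ± 0.45), Nr1d1 (-1.14 ± 0.67) and Per2 (-0.90 ± 0.32) had every diabetic array below every control and did not pass (adjusted p = 0.108, 0.346 and 0.0737). In all 3 of 8 measured clock genes fell and none rose. The hour of tissue collection was not among the values used here, and its part in these differences was not tested. The E box CACGTG was found in the windows of Bhlhe41 and Bhlhe40, not of Dbp, and in 6.42% of all windows.

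Immediate early genes gave 1 call in each direction. Nr4a1, an orphan nuclear receptor induced within minutes by many stimuli, fell by 2.49 ± 0.79 (adjusted p = 0.0454), but the call was lost when any array other than control replicate 2 was left out (adjusted p up to 0.128). A fainter Nr4a1 probe set fell by 2.05 ± 0.63 (adjusted p = 0.0354), with no overlap between the groups. Myc rose by 1.06 ± 0.33, and that call was lost without any array other than control replicate 3. The remaining 12 of 14 measured early genes did not pass.

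Cytosolic ribosomal protein genes rose by small amounts. Of 37 measured 20 rose and none fell, with a median of 0.44. Rpl19 read 24507, 24684, 20968 and 23676 in the controls and 36624, 35594, 31793 and 37466 in the diabetic group (0.59 ± 0.10, adjusted p = 0.000186). Rps16 rose by 0.71 ± 0.13 and Rpl7a by 0.67 ± 0.13. None of 15 measured translation factors passed, with a median of -0.08, while without diabetic replicate 3 there were 2 that rose and the median was 0.0086. The ribosomal median was 0.52 on station 1 alone and 0.34 on station 2 alone, where none of the 37 passed.

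Detoxification enzymes were divided. Of 43 measured antioxidant and detoxification genes 10 rose and 5 fell, or 11 and 3 without diabetic replicate 3. Mgst1, the microsomal glutathione transferase, read 2094, 2793, 1834 and 1767 in the controls and 7487, 7817, 8284 and 7833 in the diabetic ventricles (1.91 ± 0.21, adjusted p = 7.92e-07). Gstm5, Gstm1, Gsta4 and Gstp1, cytosolic glutathione transferases, rose by 1.65, 1.03, 0.99 and 0.85, and the carbonyl reductase Cbr1 by 1.73. Txnip, which is induced by glucose and inhibits thioredoxin, rose by 1.14 ± 0.15 (adjusted p = 8.5e-06). Monoamine oxidase A (Maoa) fell by 1.18 ± 0.21 and the retinal dehydrogenase Aldh1a1 by 1.06 ± 0.16. Cyp2e1, a cytochrome P450 induced in liver by ketosis and fasting, rose from 730.3, 742, 1182 and 1162 to 3974, 7456, 3275 and 5591 (2.38 ± 0.28, adjusted p = 1.72e-06), while none of the other 5 measured liver markers passed.

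Several of the largest changes belong to none of these groups. Penk, which encodes the precursor of enkephalins, opioid peptides, read 2919, 5552, 3676 and 2696 in the controls and 23728, 18608, 17156 and 26344 in the diabetic ventricles (2.57 ± 0.36, adjusted p = 2.64e-05). Pik3c2g, a class II phosphoinositide 3-kinase, read 526, 860.4, 589 and 728 against 5574, 4529, 3631 and 6507 (2.90 ± 0.28, adjusted p = 8.22e-08). For both genes every diabetic array lay above every control. Among 17 measured genes of insulin signalling Pik3c2g was the 1 that passed.

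Igfbp3, a carrier of insulin-like growth factors, rose by 1.90 ± 0.26 (adjusted p = 1.08e-05), and the imprinted RNA H19 by 1.32 ± 0.26, or 3.61 by its fainter probe set. Igf1 gave 0.59 ± 0.26 and did not pass. Endothelial genes moved in both directions, with the VEGF receptor gene Kdr up by 1.83 ± 0.31 (adjusted p = 0.00017) and the water channel Aqp1 down from 7289.7 to 7886 in the controls to 2236 to 3777 (-1.48 ± 0.22), and 7 of 9 measured endothelial markers did not pass. LOC102553868, an uncharacterised gene, read 5161, 6081, 5171 and 5982 in the controls and 285, 71.2, 30.4 and 50.2 in the diabetic group (-6.22 ± 0.52, adjusted p = 3.55e-08), with 1 diabetic array at the floor. A further 98 of the 599 probe sets carry no single gene symbol, and the extremes among these were 7.08 and -6.67. Of the other large rises, Pla2g2a, a secreted phospholipase, gave 1.73 ± 0.22, C2cd4b 2.21 ± 0.44 and the decarboxylase gene Ddc 2.27 ± 0.65, the last of which lost its call without control replicate 1 or 2 or diabetic replicate 1, 2 or 4. The C2cd4b rise was 0.69 on station 2 alone.

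Adipocyte genes were examined because fat on the heart can enter a ventricle sample. Of 9 measured adipocyte markers 4 rose and 1 fell, with a summed signal of 44544 to 60938 in the diabetic arrays and 44832 to 54329 in the controls. Those that rose were adipsin (Cfd, 1.82 ± 0.46), hormone-sensitive lipase (Lipe, 0.91 ± 0.19), Fabp4 and Cidea. Leaving out each array in turn left 1 to 4 of them rising. The 1 that fell, Lpl, did not pass without diabetic replicate 3 (-0.33, adjusted p = 0.178). The Cidea call (0.50 ± 0.16) was lost in 6 of these 8 fits, all but those without control replicate 2 or diabetic replicate 3 (adjusted p up to 0.168), and with the station as a block (adjusted p = 0.0526). The rise of Cfd did not pass without control replicate 4 (1.43, adjusted p = 0.0513), and that of Fabp4 without control replicate 3 or 4 or diabetic replicate 2 or 4 (0.65 to 0.76, adjusted p up to 0.109). The leptin gene gave -0.11. Whether adipose tissue took part in the rise of lipid genes was not tested.

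Markers of heart muscle cells were abundant in both groups. None of 11 measured myocyte markers passed, their median was -0.11 and their summed signal was 483712 to 660738 in the diabetic arrays and 554193 to 739525 in the controls. Of 8 measured atrophy genes 2 rose (Ctsl, 0.70 ± 0.13, and Map1lc3a, 0.69 ± 0.15) and of 27 proteasome and ubiquitin genes 1 fell. Without diabetic replicate 3 there were 3 proteasome and ubiquitin genes and 1 atrophy gene that fell. The muscle ubiquitin ligase Trim63 gave 0.10 ± 0.17 (adjusted p = 0.821). Of 18 measured cell cycle genes 1 fell, or 3 without diabetic replicate 3 (median -0.32). The 1 was cyclin D1 (Ccnd1, -1.19 ± 0.24) and of its 3 fainter probe sets 2 fell too (-0.99 and -1.09) while the third gave 0.42 without passing.

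**Figure D4:**
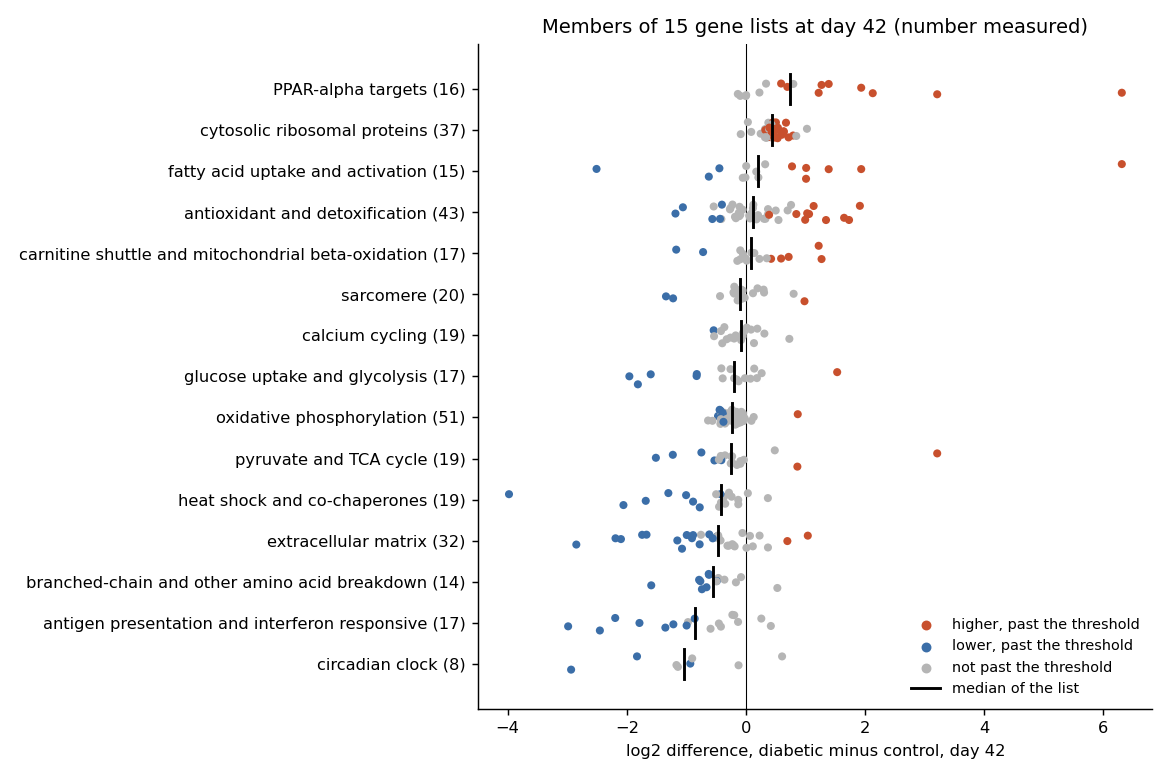
Each point is 1 measured gene of the named list, placed by its log2 difference (diabetic minus control, day 42), in red or blue where it rose or fell past the threshold and in grey otherwise, with black bars at the list medians and the number measured in brackets. The medians run from 0.74 for PPAR-alpha targets to -1.04 for clock genes.

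Whether a change was particular to day 42 was tested as a difference between the effects of 2 days, each against its own controls. The effect differed from that of day 28 in 51 of 5244 probe sets (0.973%) and from that of day 3 in 98 (1.87%). With 1 probe set a gene these were 28 (0.892%) and 56 (1.78%) of 3140 genes. The arrays of day 42 were scanned on a day of their own and under another operator than the rest. The age of the animals, the scan day and the operator therefore cannot be told apart. The hexokinase 3' to 5' ratio was 2.60 to 5.07 at day 42 and 1.43 to 2.77 at the other days. The Gapdh ratio was 1.09 to 1.23 and 0.967 to 1.13. Mean diabetic body weight was 117.5 g at day 42 and 230 g at day 28. The part of body weight and of the hexokinase ratio in the differences between days was not tested. The arrays of day 28 fell on 2 scan days and those of day 3 on 3. Station and group were nearly confounded there, with all 4 controls of day 28 and 1 of its 4 diabetic arrays on station 2, and all 4 diabetic arrays of day 3 and 1 of its 4 controls on station 2. Of the 23 named genes that differed from day 28, 19 passed with the station as a block and 19 with the scan day as a block. Of the 41 that differed from day 3, 27 and 35 did, and no sign turned. The chip lots were unevenly spread over the groups of day 3 as well. With the chip lot as a block most of the 41 passed and others did not. Among the latter, H19 (adjusted p = 0.0552), Per2 (0.0621), Col1a1 (0.0789) and Slc41a3 (0.118) had passed with the station and with the scan day. By comparison, 110 probe sets passed at day 28 (2.1%) and 49 at day 3 (0.934%), and 96 and 39 of the 599 also passed at those days.

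Several fuel genes already differed at the other days. Acot1 differed by 3.61 ± 0.58 at day 3 and 4.005 ± 0.58 at day 28, Slc2a4 by -0.94 and -1.06, Cd36 by 0.61 and 1.10, and Decr1 by 0.98 and 1.33. All of these passed on their own day except Cd36 at day 3 (adjusted p = 0.245). For none of these 4 genes did the difference from day 42 pass (smallest adjusted p = 0.0887). Pfkp gave 0.05 at day 3, and its effect at day 42 was higher by 1.49 ± 0.31 (adjusted p = 0.00917). The effects of Acsl6 and Pdp2 also differed from day 3, but not with the station as a block (adjusted p = 0.0544 and 0.0645). Pdk4 had a larger effect at day 42 than at day 3 (by 1.89 ± 0.45, adjusted p = 0.0263), and Ucp3 than at day 28 (by 1.47 ± 0.35, adjusted p = 0.0329). With the scan day as a block neither passed (adjusted p = 0.0883 for Pdk4 and 0.087 for Ucp3), and with the station as a block Ucp3 passed and Pdk4 did not (adjusted p = 0.0608). Ucp3 did not pass with the chip lot as a block either (adjusted p = 0.0726). A fainter Ucp3 probe set differed from day 28 by 1.59 without passing (adjusted p = 0.0994). Nppa gave 1.27 and 1.17 at days 3 and 28 without passing at either, and its effect at day 42 was not shown to be larger (adjusted p = 0.746 and 0.728).

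The falls of several matrix, class II, heat shock and clock genes were larger at day 42 than at either other day. Col3a1 gave -0.41 at day 28, a difference of -2.44 ± 0.38 from day 42 (adjusted p = 0.000783), and the differences for Col1a1, Col1a2 and Lum were -1.81, -1.87 and -1.51. That of Lum did not pass with the scan day as a block (adjusted p = 0.0556). Fainter Col1a1 probe sets gave differences of -1.73 and -1.15, which passed, and -0.63, which did not (adjusted p = 0.7). RT1-Da gave -0.30 at day 28, a difference of -2.68 ± 0.31 from day 42 (adjusted p = 2.67e-05), and Cd74 and RT1-Db1 also passed. Fainter Cd74 probe sets gave differences of -1.66 and -2.17, which passed, and -2.39, which did not (adjusted p = 0.142). For Hspa1a, Hsph1, Dnajb1 and Dnaja1 the effects at day 28 were -0.24, -0.24, 0.69 and 0.24, and each differed from day 42 (adjusted p = 0.0158 or below). With the station as a block Hspa1a no longer did so (-3.56, adjusted p = 0.111) and the other 3 did. A fainter Dnaja1 probe set gave a difference of -1.61 from day 28 and did not pass (adjusted p = 0.0869). Dbp gave 0.30 at day 28 and 0.87 at day 3, and both differed from day 42 (adjusted p = 0.000131 and 5.94e-06).

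Some genes lay on opposite sides of 0 at different days. Kcnd3 gave 1.35 at day 28 (adjusted p = 0.113), a difference of -3.75 ± 0.60 from day 42 (adjusted p = 0.000837), and -0.20 at day 3, from which the difference did not pass (adjusted p = 0.063). Tcap was higher in diabetic ventricles at day 3 (0.82, adjusted p = 0.00738), gave 0.07 at day 28, and was lower at day 42, with differences of -2.04 ± 0.22 from day 3 and -1.30 ± 0.22 from day 28. Maoa gave 0.96 and 0.74 at days 3 and 28 against -1.18 at day 42. The cathepsin gene Ctsl, the annexin gene Anxa5 and the magnesium transporter gene Slc41a3 had higher effects at day 42 than at day 28, by 0.89, 0.90 and 1.39. With the station as a block Ctsl (adjusted p = 0.0631) and Slc41a3 (adjusted p = 0.233) did not pass, and with the scan day as a block Slc41a3 did not (adjusted p = 0.053). Fainter probe sets of Ctsl (0.69, adjusted p = 0.132) and Anxa5 (0.78, adjusted p = 0.333) did not pass.

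**Figure D5:**
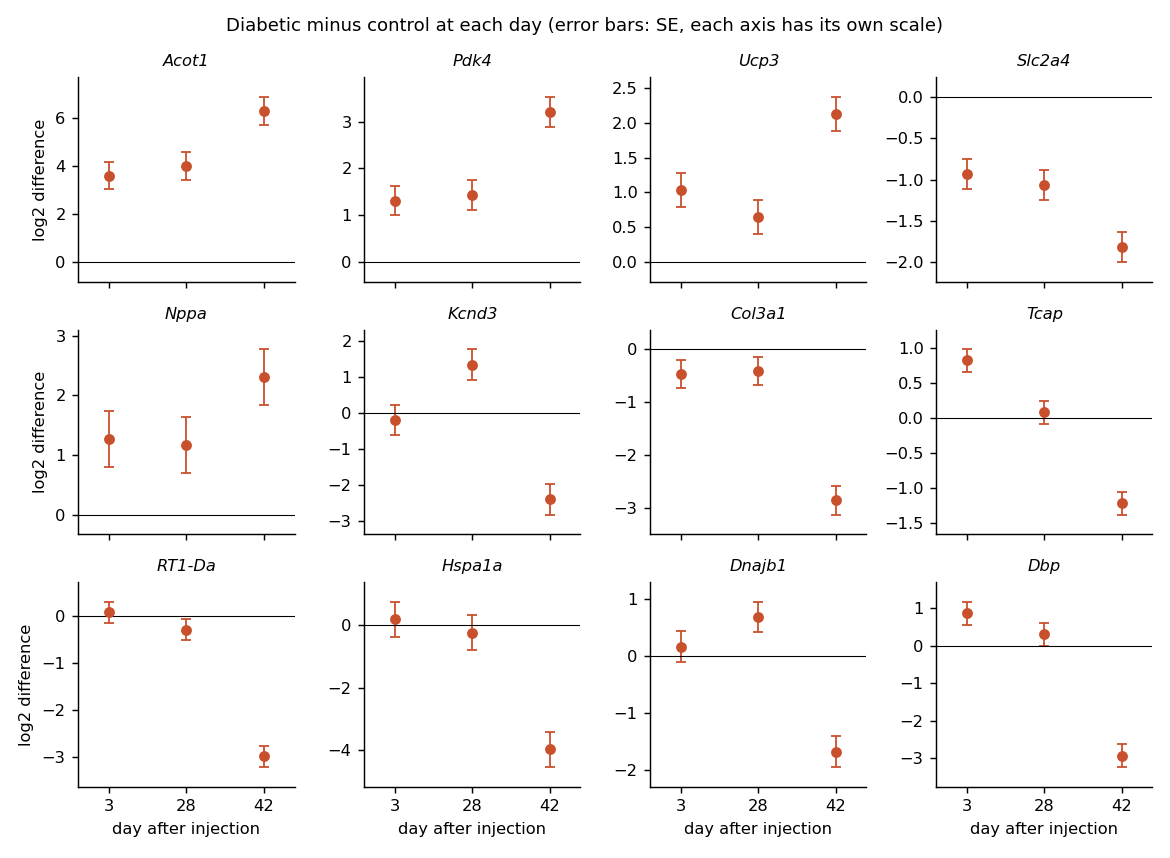
Log2 difference between diabetic and control ventricles (y axis, own scale for each gene) at 3, 28 and 42 days after injection for 12 genes, with error bars of 1 SE from the fit over 24 arrays. Acot1, Pdk4, Ucp3 and Slc2a4 lie on the same side of 0 at all 3 days, while Col3a1, RT1-Da, Hspa1a and Dbp lie far below 0 at day 42 (-2.85, -2.99, -3.98 and -2.94) and nearer to it before.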

How the data were processed

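Total RNA from the ventricles was hybridised to Affymetrix RG-U34A arrays, 1 per animal. The deposited values are MAS5 signal, a linear intensity per probe set, per the submitters' processing notes, and the version used is not given there. Animal weights and blood glucose were taken from the labels.

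Of 8799 probe sets 59 array controls were dropped. Signals under the 10th percentile over all arrays (30.5) were set to it and taken to log2, and probe sets were kept above the 40th percentile of mean log2, which left 5244. Probe sets were named from the platform annotation (7006 with 1 symbol, 308 with several, 1426 with none), and lists used the brightest probe set per gene. Group means over 24 arrays were fitted with limma 3.58.1 in R 4.3.3 (eBayes with trend and robust, 18 residual degrees of freedom) and adjusted by Benjamini-Hochberg over all probe sets kept. The script was tested on simulated data. Errors after ± are SE for log2 differences unless SD is written. The number of arrays limits the precision. The labels do not say more than that arrays are separate animals, so p-values measure the spread between these animals. Same-numbered arrays of the groups did not deviate together (correlations of -0.03 to 0.09), so numbers were not used to pair them.

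The members and gene lists were chosen with earlier results of these data known. Named genes are the 15 largest rises and 15 largest falls without overlap between groups, up to 4 members of each list that passed, the 5 largest differences between days each way and a fixed set, and further list members complete a list's count or were chosen after their values were seen. Motifs were searched in RefSeq promoters (build GRCr8, 250 bases before to 50 after each start), in genes chosen because they fell. Alternatives covered the floor, filter, scaling, eBayes setting, arrays fitted, thresholds, batches and each array left out. The fits on 1 fluidics station and with the Gapdh ratio as a covariate were chosen after seeing the data.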

Additional observations from a re-analysis of the deposited data

Results flagged for a closer look

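Among the genes and animal measures examined, 19 of 368 groups of 4 held an array or animal far from the other 3 of its group (5.16%), where chance marks about 1 in 20, and 8 of these 19 were diabetic replicate 3. In diabetic replicate 3 the signal was high for Hsph1 (2354 against 1172 to 1242 in the other diabetic arrays), Plin2 (5225 against 3321 to 3404 in the other diabetic arrays), RT1-Bb (1265 against 602 to 668 in the other diabetic arrays) and Myl4 (2732 against 558 to 607 in the other diabetic arrays). In the same array it was low for Auh (6303 against 8867 to 9108), Bcat2 (334 against 2002 to 2596), Hibadh (7911 against 10804 to 11467) and Lamb2 (10577 against 15472 to 16345). Diabetic replicate 1 stood apart for Pex11a (259.6 against 538 to 564), Ndufs8 (19820.0 against 17019.8 to 17356) and Tgfb2 (429 against 662 to 684). Among the controls, replicate 2 stood apart for C2cd4b (736 against 146 to 158), replicate 4 stood apart for Igfbp3 (959.5 against 1162 to 1207), replicate 4 stood apart for Slc2a1 (1632 against 2291 to 2445), replicate 3 stood apart for Bhlhe41 (1396 against 1655 to 1692), replicate 1 stood apart for Higd1a (8839 against 7756 to 7879), replicate 3 stood apart for Casq2 (12405 against 11408 to 11569.8) and replicate 2 stood apart for Mmp14 (814 against 1008 to 1036). Control replicate 4 was also the heaviest animal, at 472 g against 413 to 423 g.

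The diabetic effect at day 42 differed from that at day 28, by limma's test of the difference between the 2 effects, for 23 of the genes examined. As log2 differences, the effect at day 42 was higher for Ucp3 (1.47), Ctsl (0.89), Slc41a3 (1.39) and Anxa5 (0.90). It was lower for LOC102553868 (-4.05), Kcnd3 (-3.75), Hspa1a (-3.74), Dbp (-3.24), RT1-Da (-2.68), Col3a1 (-2.44), Dnajb1 (-2.37), Kcnq1 (-2.14), Maoa (-1.93) and Cd74 (-1.91). Smaller negative differences were found for Col1a2 (-1.87), Hsph1 (-1.82), Col1a1 (-1.81), Bhlhe41 (-1.69), Dnaja1 (-1.55), Lum (-1.51), RT1-Db1 (-1.49), Col15a1 (-1.48) and Tcap (-1.30). The largest adjusted p among these was 0.0387, for Kcnq1. Its difference did not pass with the station (adjusted p = 0.203) or the scan day (0.118) as a block, and passed with the chip lot (0.0113).

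The diabetic effect at day 42 differed from that at day 3, by limma's test of the difference between the 2 effects, for 41 of the genes examined. As log2 differences, the effect at day 42 was higher for Pdk4 (1.89), Cyp2e1 (1.62), Mgst1 (1.35), Igfbp3 (1.92), Pfkp (1.49), H19 (1.64), Gstm5 (1.22), Rpl19 (0.55), Slc41a3 (1.39), Gstp1 (0.87) and Lamb2 (0.90). It was lower for LOC102553868 (-4.28), Hspa1a (-4.16), Dbp (-3.80), RT1-Da (-3.05), Nr1d2 (-2.51), Col3a1 (-2.38), Maoa (-2.14), Bhlhe41 (-2.13), Col15a1 (-2.04), Per2 (-2.04), Tcap (-2.04), Acsl6 (-1.996), Cd74 (-1.88), Dnajb1 (-1.85) and Hsph1 (-1.81). Smaller negative differences were found for RT1-Db1 (-1.81), P4ha1 (-1.68), Col1a1 (-1.60), Col1a2 (-1.59), Lum (-1.56), RT1-Ba (-1.56), Dnaja1 (-1.39), RT1-Bb (-1.35), Aqp1 (-1.24), Ctsk (-1.12), Col5a2 (-1.12), Hspb1 (-1.02), Aldh1a1 (-0.95), Pdp2 (-0.87) and Pxmp2 (-0.85). The largest adjusted p among these was 0.0498.

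The arrays of day 42 were scanned apart from the others and under another operator, so day, scan day and operator cannot be told apart.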

How the results depend on the processing

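The 599 probe sets past the threshold at day 42 became 346 with 1 probe set per gene, 217 with a log2 size of at least 1 as well, 375 at an adjusted p under 0.01 and 61 on the 3 arrays of station 2 alone, all by construction fewer genes, arrays or a stricter threshold. Leaving out each array gave 477 to 573, and every other alternative 402 to 709. The 51 that differed from day 28 became 29 with 1 probe set per gene adjusted over those genes alone (28 with the adjustment over all probe sets) and 14 on station 2 alone, and 41 to 65 with an array left out. The 98 that differed from day 3 became 56 with 1 probe set per gene, 39 at the stricter threshold, 16 on station 2 alone and 58 with the Gapdh ratio as a covariate, for which the cause was not tested, and 63 to 94 with an array left out (63 without control replicate 4, 65 without diabetic replicate 2). The replicate block gave 624, 47 and 103. The numbers are no pairing in the labels, and 2 of 8 arrays correlated best with their own number. With an animal left out, the group difference stayed between -321.2 and -301.5 g in body weight, -0.66 and -0.57 g in ventricle weight, 0.77 and 0.88 mg/g in their ratio and 484 and 569 mg/dL in glucose. Median centring made 57.0% of the calls higher, against 50.8%. Of the 145 genes named or examined with a call, 31 lost it with the Gapdh ratio as a covariate and 49 on station 1 alone. The sign turned once, for Tfrc on station 2 alone (0.22 against -1.33). No alternative moved the median of all probe sets by as much as 0.1. Signals at the floor limit the size of the largest changes.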
